A study of Mus musculus with 4 samples.

Results

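The genes described here serve the endoplasmic reticulum (ER), the compartment where secreted and membrane proteins are folded. The set names 42 genes of ER folding, of the unfolded protein response, of ER-associated degradation (ERAD) and of the translocon, the channel through which new proteins enter. A gene was followed where a row of the array table carried its symbol alone, and the row with the highest mean was used where a gene had several. This gave 41 members among 22180 genes tested, and Pdia4 had no such row. By role, the members were 18 folding factors, 12 ERAD genes, 7 stress sensors, proteases and transcription factors, and 4 translocon genes.

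RNA came from primary keratinocytes, the epithelial cells of the epidermis, of C57BL/6J mice aged 1 week. Glut1-deficient cells carried floxed Glut1 alleles and Cre driven by the promoter of keratin 14, a basal keratinocyte gene, and wild-type (WT) cells carried the floxed alleles without Cre. Glut1, encoded by Slc2a1, imports glucose, so the comparison asks how these genes stand when that route is removed. Each genotype had 4 mice, and each of its 2 arrays held RNA from 2 plates combined, harvested 1 day after reseeding in medium with 0.05 mM added calcium chloride. Lysis used 1000000 Glut1-deficient and 1500000 WT cells per sample. Values are log2 intensities after RMA, an array normalization, so a difference of 1 is a factor of 2 and every change is relative to the other genes of the array.

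When unfolded proteins accumulate in the ER, the sensors IRE1 (gene Ern1), PERK (Eif2ak3) and ATF6 are activated. IRE1 splices Xbp1 mRNA into the form that encodes an active transcription factor, PERK slows translation and favours that of ATF4, and ATF6 is cut by the proteases S1P and S2P (Mbtps1, Mbtps2). Together they induce chaperones and the ERAD machinery, which carries misfolded proteins back to the cytosol for the proteasome. Arrays of this kind read total transcript and do not tell spliced from unspliced Xbp1, nor cut from uncut ATF6.

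Over all genes, 397 rose (1.79% of those tested) and 233 fell (1.05%) in Glut1-deficient cells by limma at a Benjamini-Hochberg adjusted p under 0.05. Slc2a1 itself read 11.01 and 11.01 on the Glut1-deficient arrays and 11.13 and 11.05 on the WT arrays (limma adjusted p = 0.675). A dimmer row of the gene read 4.80 and 4.44 in Glut1-deficient and 5.18 and 5.09 in WT (-0.52; limma adjusted p = 0.247 over all rows). Whether either row covers the deleted part is not known here, so neither checks the genotype labels. Krt14, the keratin of basal keratinocytes, was bright on all 4 arrays (12.15 and 12.21 in Glut1-deficient, 12.56 and 12.54 in WT), while Krt5 had no row of its own. Markers of other cells differed between the genotypes. The summed linear intensity of 10 fibroblast markers was 1221 and 686 on the Glut1-deficient arrays and 369 and 328 on the WT arrays. Of the 10, 8 were higher without overlap, as were 25.5% of all genes, although 0 passed limma. The summed intensity of 8 melanocyte markers was 963 and 1029 in Glut1-deficient and 471 and 378 in WT, with 4 of 8 risen. Keratinocyte markers summed to 12356 and 13181 in Glut1-deficient and 16157 and 15670 in WT (0 of 9 passed limma, 5 at an unadjusted p under 0.05). Endothelial and immune markers had medians of -0.0037 and -0.023. No RMA value is 0, so no marker was at 0. In such bulk samples, fewer cells of a type and less RNA per cell cannot be told apart.

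Of the 41 members, 3 rose, 0 fell and 38 did not pass limma (11 had an unadjusted p under 0.05, as did 22.2% of all genes). The 3 that rose make 7.32% of the members, beside 1.79% of all genes (2.84% passed in either direction). They were Derl3 and Herpud1 of ERAD and Xbp1 of the sensor branch. The members were brighter than most genes (median level 8.62, beside 4.76 for all genes), so these shares compare genes of unlike level. None of the 18 folding factors passed. The member median log2 fold change (Glut1-deficient minus WT) was -0.011, and that of all genes was -0.0074. Both Glut1-deficient arrays lay above both WT arrays for 13 members (31.7%, beside 25.5% of all genes) and below both for 12 (29.3%, beside 27.7%), so these shares stood near the background. For 25 members the 95% interval of the log2 fold change lay within -0.5 and 0.5.

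The number of members called depended on how the variance was estimated. With an intensity trend in limma's prior variance 7 members rose (6.06% of all genes did) and 3 fell (5.98% of all genes), and with a robust trend the counts were the same (6.17% and 6.14% of all genes). Among genes above the median level 7 rose and 2 fell (10.9% and 10% of all genes there). Derl3 was among those 7 and passed that filter only through its Glut1-deficient values, so its call there supports nothing. At an adjusted p under 0.1, 7 rose and 2 fell (4.62% and 3.75% of all genes). After median centring 5 rose and 1 fell (2.11% and 1.16%). Pdia5 alone fell after scaling to the 75th percentile (1.1% of all genes fell), after a repeated quantile normalization (1.02%) and with the mean of each gene's rows (1.04%). With the replicate number as a block 0 members rose (0.144% of all genes did), and with any 1 array left out limma called 0 genes of all (2948 to 4627 at an unadjusted p under 0.05).

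**Figure D1:**
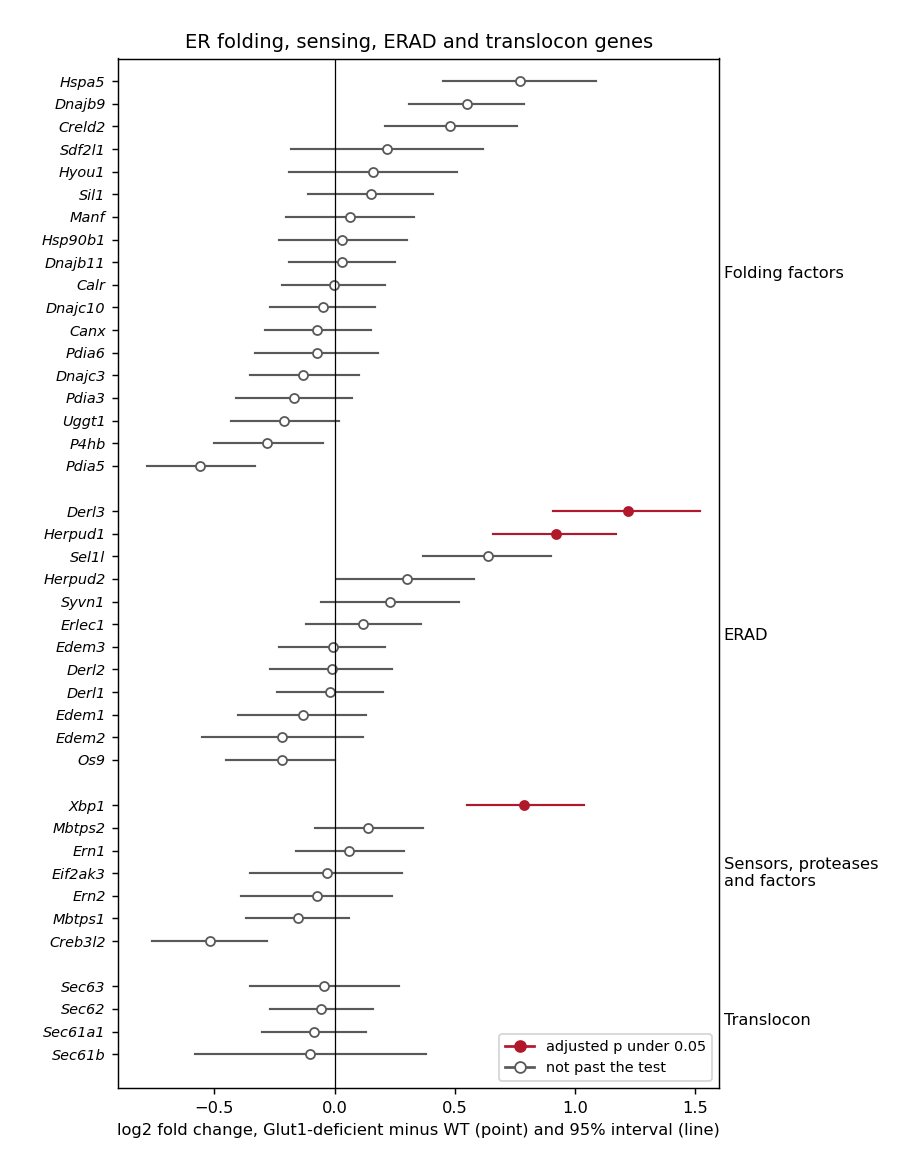
Log2 fold change, Glut1-deficient minus WT, of each of the 41 members (point) with its 95% interval from limma (line), grouped by role; filled red points passed at an adjusted p under 0.05. The 3 filled points are Derl3 at 1.22, Herpud1 at 0.92 and Xbp1 at 0.79, and the largest difference below 0 is that of Pdia5 at -0.56.

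The ERAD members held the largest difference of the set. Derl3, a derlin, one of the membrane proteins that form the ERAD channel, read 5.76 and 5.65 on the Glut1-deficient arrays and 4.61 and 4.37 on the WT arrays. The groups lay apart by more than the spread within either, and Derl3 rose 2.32-fold (log2 fold change 1.22, SE 0.118; limma adjusted p = 0.022). The WT values lay under the median gene mean of 4.76, and no detection calls were used here. How far array background sets these WT values was not tested, so the fold is that of the RMA values. Its more widely expressed paralogues read close to WT. Derl1 was 10.03 and 10.07 in Glut1-deficient and 10.08 and 10.05 in WT (-0.019, 95% interval -0.24 to 0.20). Derl2 was 7.64 and 7.47 in Glut1-deficient and 7.59 and 7.54 in WT (-0.011, interval -0.27 to 0.24).

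Herpud1, a ubiquitin-like protein of the ER membrane that assembles the retrotranslocation complex, read 9.49 and 9.51 in Glut1-deficient cells and 8.49 and 8.67 in WT cells. It rose 1.89-fold (0.92, SE 0.0993; limma adjusted p = 0.0274), with Glut1-deficient arrays that nearly coincided. Sel1l, the scaffold that holds the ubiquitin ligase Hrd1 in place, read 9.71 and 9.53 in Glut1-deficient and 9.0 and 8.97 in WT. Its difference of 0.64 (SE 0.101) missed the threshold (limma adjusted p = 0.0515). Both Glut1-deficient arrays lay above both WT arrays, as for 25.5% of all genes. Syvn1, which encodes Hrd1, had 7.22 and 7.0 in Glut1-deficient and 6.83 and 6.92 in WT, a difference of 0.23 (interval -0.058 to 0.52; limma adjusted p = 0.312). Herpud2, the paralogue of Herpud1, had 8.75 and 8.55 in Glut1-deficient and 8.42 and 8.30 in WT (0.30, SE 0.11; limma adjusted p = 0.214).

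The lectins that select glycoproteins for ERAD did not pass the test. Os9 was 8.48 and 8.54 in Glut1-deficient and 8.70 and 8.77 in WT (-0.22; limma adjusted p = 0.229), which put it below WT on both arrays. The partner lectin Erlec1 was 7.64 and 7.77 in Glut1-deficient and 7.58 on both WT arrays (0.12; limma adjusted p = 0.505). Edem1, Edem2 and Edem3, which trim or bind mannose on misfolded glycoproteins, had log2 fold changes of -0.13, -0.22 and -0.0079. Their 3 intervals all included 0, and the groups overlapped for each. Of the 12 ERAD members, 2 rose (1.79% of all genes did), 0 fell (1.05% did) and 10 did not pass. The class median was 0.058.

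**Figure D2:**
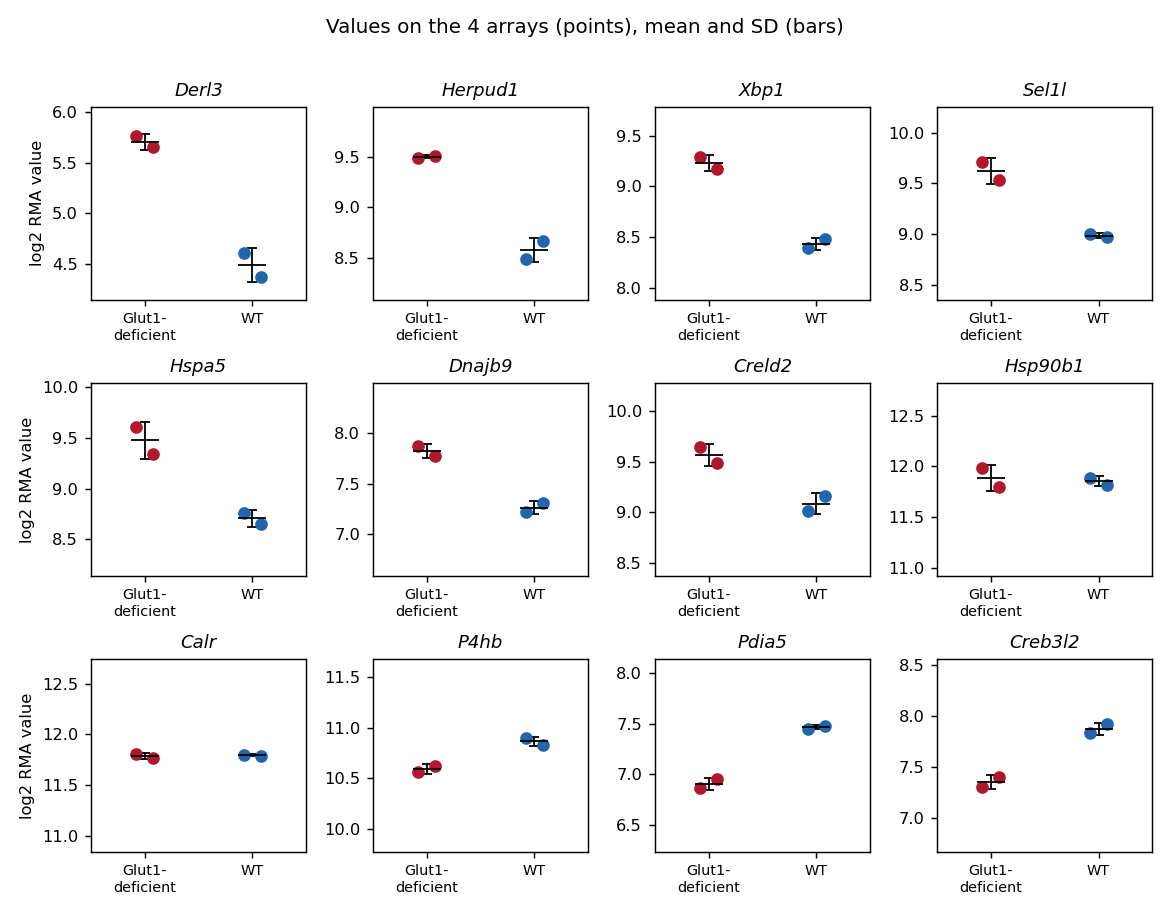
Log2 RMA values of 12 members on the 2 Glut1-deficient arrays (red, left) and the 2 WT arrays (blue, right), with the mean and SD (black); every panel spans the same log2 range around its own mean. Derl3, Herpud1, Xbp1, Sel1l, Hspa5, Dnajb9 and Creld2 lie higher in Glut1-deficient cells, P4hb, Pdia5 and Creb3l2 lie lower, and Hsp90b1 and Calr overlap.

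Among the folding factors, 0 of 18 passed limma (5 at an unadjusted p under 0.05, as were 22.2% of all genes). There were 9 positive and 9 negative log2 fold changes, with a median of 0.015. Hspa5 encodes BiP, the ER Hsp70 that binds unfolded chains and holds the sensors inactive. It read 9.61 and 9.34 in Glut1-deficient cells and 8.76 and 8.65 in WT cells, a difference of 0.77 (SE 0.123, interval 0.45 to 1.09; limma adjusted p = 0.0515). The threshold was missed narrowly. Both Glut1-deficient arrays lay above both WT arrays, as for 25.5% of all genes. Dnajb9 (ERdj4), a BiP cochaperone, had 7.87 and 7.77 in Glut1-deficient and 7.22 and 7.31 in WT (0.55, SE 0.0933; limma adjusted p = 0.0562). Creld2, an ER stress-inducible secreted protein, had 9.64 and 9.49 in Glut1-deficient and 9.01 and 9.16 in WT (0.48, SE 0.106; limma adjusted p = 0.0891). For Dnajb9 and Creld2 too, all Glut1-deficient arrays exceeded all WT arrays.

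The other large chaperones stood close to WT. Hsp90b1 (GRP94, the ER Hsp90) was 11.98 and 11.80 in Glut1-deficient and 11.89 and 11.82 in WT, a difference of 0.033 with an interval of -0.23 to 0.30. Calr (calreticulin, a lectin chaperone) was 11.81 and 11.77 in Glut1-deficient and 11.80 and 11.79 in WT, a difference of -0.0023 (interval -0.22 to 0.21). Canx, its membrane-bound relative calnexin, differed by -0.071 (interval -0.29 to 0.15). A change of the size seen for Hspa5 lies outside all 3 intervals. Hyou1 (GRP170) and Sil1, which exchange the nucleotide on BiP, differed by 0.16 and 0.15, and the BiP cochaperones Dnajb11 and Dnajc3 by 0.032 and -0.13. Sdf2l1 differed by 0.22 and Manf by 0.064, and none of these 6 had an interval clear of 0. Uggt1, the glucosyltransferase that returns unfolded glycoproteins to calnexin, was 8.42 and 8.37 in Glut1-deficient and 8.64 and 8.56 in WT (-0.21; limma adjusted p = 0.259).

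All 5 measured members of the protein disulfide isomerase family had log2 fold changes below 0, a grouping made after the values were seen. Of these, 0 passed limma (2 at an unadjusted p under 0.05, as were 22.2% of all genes). Pdia5 was 6.87 and 6.95 in Glut1-deficient and 7.45 and 7.48 in WT, a difference of -0.56 (SE 0.0872; limma adjusted p = 0.0502). P4hb, the classical protein disulfide isomerase, was 10.56 and 10.62 in Glut1-deficient and 10.90 and 10.83 in WT (-0.28; limma adjusted p = 0.165). Both lay below WT on both arrays. Pdia3, the calnexin-associated isomerase, differed by -0.17, Pdia6 by -0.074 and the reductase Dnajc10 by -0.047.

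Set against each other, folding factors and ERAD genes differed little as classes. Each gene was taken relative to its WT mean, so the 2 WT values mirror each other around 0 by construction. The folding median minus the ERAD median was then -0.052 and -0.10 on the Glut1-deficient arrays and 0.016 and -0.016 on the WT arrays. From the fold changes it was -0.043. Both Glut1-deficient arrays lay on the ERAD side, by 0.10 or less on the log2 scale. The difference moved to -0.10 without Glut1-deficient array 1 and to -0.095 with the mean of each gene's rows. At an adjusted p under 0.05, 2 ERAD genes and 0 folding factors rose. With an intensity trend 3 ERAD genes (Derl3, Herpud1 and Sel1l) and 3 folding factors (Hspa5, Dnajb9 and Creld2) rose. Whether the classes differ was not tested.

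Of the 7 sensor, protease and factor genes, 1 rose (1.79% of all genes did), 0 fell and 6 did not pass. Xbp1 read 9.29 and 9.17 in Glut1-deficient cells and 8.39 and 8.48 in WT cells, which was 1.73-fold higher (0.79, SE 0.0943; limma adjusted p = 0.0318). The sensor genes Ern1 and Eif2ak3 differed less. Ern1 was 7.37 and 7.39 in Glut1-deficient and 7.27 and 7.36 in WT (0.062, interval -0.16 to 0.29). Eif2ak3 was 6.92 and 7.20 in Glut1-deficient and 7.12 and 7.06 in WT (-0.032, interval -0.35 to 0.28). Ern2, the IRE1 paralogue of mucous epithelia, stayed between 3.70 and 3.96 on the 4 arrays, under the median gene mean of 4.76.

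Creb3l2, a membrane-bound transcription factor of secretory cells, was 7.30 and 7.40 in Glut1-deficient and 7.83 and 7.92 in WT. The groups did not overlap, and the difference was -0.52 (SE 0.093; limma adjusted p = 0.0619). Mbtps1 was 7.96 and 8.01 in Glut1-deficient and 8.14 and 8.13 in WT (-0.15; limma adjusted p = 0.359). Mbtps2 was 8.57 and 8.54 in Glut1-deficient and 8.38 and 8.46 in WT (0.14; limma adjusted p = 0.416). The proteases thus lay on opposite sides of WT, neither past the test.

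Atf6 is no member, but both proteases act on its product. It stood in a list of 14 further genes of the ATF6 and CREB3 families and of IRE1 and PERK partners. Of these, 1 rose (1.79% of all genes did), 0 fell and 13 did not pass (list median 0.16). That 1 was Atf6, at 9.13 and 8.90 in Glut1-deficient and 7.75 and 7.66 in WT, a 2.48-fold difference (1.31, SE 0.115; limma adjusted p = 0.0208). The paralogue Atf6b differed by 0.33 (SE 0.0997; limma adjusted p = 0.152). Creb3l1 differed by 0.58 (limma adjusted p = 0.0514), and Wfs1, an ER membrane protein induced by stress, by 0.60 (limma adjusted p = 0.068). Traf2, an adaptor of IRE1 signalling, differed by -0.49 (limma adjusted p = 0.0602).

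The 4 translocon members lay close to WT. Sec61a1, the pore subunit, was 10.81 and 10.83 in Glut1-deficient and 10.91 and 10.91 in WT (-0.086, interval -0.30 to 0.13). Sec62 was 8.85 and 8.87 in Glut1-deficient and 8.94 and 8.89 in WT (-0.057), and Sec63, which recruits BiP to the pore, was 9.38 and 9.14 in Glut1-deficient and 9.24 and 9.37 in WT (-0.043). The dim row of Sec61b read 4.26 and 4.38 in Glut1-deficient and 4.16 and 4.68 in WT (-0.10, interval -0.58 to 0.38). None of the 4 passed limma, at an unadjusted p under 0.05 either, and the class median was -0.071. Of 21 further genes of the translocon, signal peptidase and oligosaccharyltransferase, which cleave and glycosylate entering chains, 0 passed limma, 1 had a positive log2 fold change, and 18 lay below WT without overlap (27.7% of all genes did). Their median was -0.15, with Sec61g at -0.55 (limma adjusted p = 0.0576) and Spcs3 at -0.38.

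Lists of other secretory pathway genes placed these values in context. In a list named for PERK, ATF4 and CHOP, 9 of 12 genes rose (1.79% of all genes did), 0 fell and 3 did not pass. The list median was 1.23. PERK activity was not measured, and whether PERK acts on these genes here was not tested. Ddit3, which encodes CHOP, read 8.97 and 8.74 in Glut1-deficient and 5.96 and 6.15 in WT (2.80, SE 0.125; limma adjusted p = 0.0126). Atf4 rose 2.28-fold, and Ppp1r15a (GADD34), which restarts translation, 3.71-fold. Earlier results of these data had already shown that list to be high, so its count is no independent evidence. Among 22 other ERAD and p97 genes, 1 rose, 0 fell and 21 did not pass (median 0.026). It was Rhbdd1, a rhomboid protease of ERAD, at 9.37 and 9.16 in Glut1-deficient and 8.37 and 8.48 in WT (0.84, SE 0.111; limma adjusted p = 0.0387). Vcp, the p97 ATPase that pulls substrates out, was 10.26 and 10.31 in Glut1-deficient and 10.63 and 10.58 in WT (-0.32; limma adjusted p = 0.121).

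Further along the pathway the medians lay at or below 0, apart from the 6 ER-phagy receptors (0 passed limma, median 0.11). Of 14 glycan-trimming and lectin genes, 0 rose, 1 fell (1.05% of all genes did) and 13 did not pass, with a median of -0.21. Kdelr3, a receptor that returns escaped chaperones to the ER, read 7.36 and 7.49 in Glut1-deficient and 8.03 and 8.02 in WT, and fell by 0.60 on the log2 scale (SE 0.0931; limma adjusted p = 0.0494). That pass was narrow. Uggt2, the paralogue of Uggt1, differed by -0.58 (limma adjusted p = 0.0521). Of 18 other disulfide and prolyl isomerase genes, 0 passed limma and the median was -0.071. Qsox1, a sulfhydryl oxidase, was 7.97 and 8.0 in Glut1-deficient and 8.40 and 8.40 in WT (-0.41; limma adjusted p = 0.0775). The 14 COPII coat genes, which carry cargo out of the ER, had 0 past limma and a median of -0.11, with Surf4, a cargo receptor, at -0.26.

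**Figure D3:**
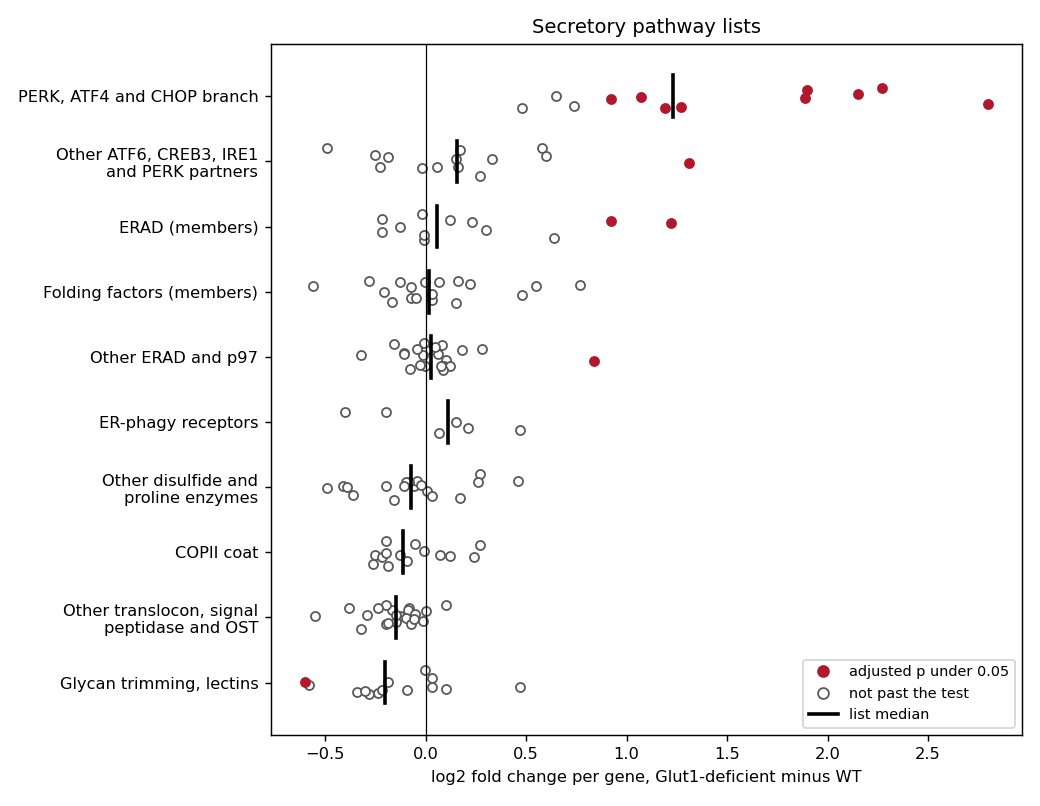
Log2 fold change, Glut1-deficient minus WT, of each gene (point) in 10 secretory pathway lists, 2 of them made of members, with the list median (black bar); filled red points passed limma at an adjusted p under 0.05. The list named for PERK, ATF4 and CHOP has a median of 1.23, and every other median lies between -0.21 and 0.16.

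Promoters of several members hold the ER stress response element (ERSE), at which ATF6 is known to act. RefSeq windows of 300 bases (250 before to 50 after the annotated start, GRCm38.p6) matched 35 of the 42 genes. The ERSE was searched on both strands as CCAAT, any 9 bases, then CCACG. It was found in 9 of these 35 genes (25.7%) and in 37 of all 27025 genes with a promoter (39 of 32851 promoters, 0.119%). The members were named as genes of this stress response, so a higher share among them is no result of these data. The sites are shown because they lie in front of Derl3 and also of members whose interval included 0. Each line runs 5′ to 3′ on the strand that reads CCAAT first, with 10 flanking bases, and capitals mark the fixed letters.
Derl3 (chr10:75893232-75893270, minus strand): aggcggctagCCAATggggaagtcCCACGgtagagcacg
Hspa5 (chr2:34772015-34772053, plus strand): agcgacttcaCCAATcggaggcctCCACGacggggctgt
Creld2 (chr15:88819510-88819548, minus strand): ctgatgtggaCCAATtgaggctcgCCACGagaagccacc
Syvn1 (chr19:6046522-6046560, plus strand): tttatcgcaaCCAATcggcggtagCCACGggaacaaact
Hsp90b1 (chr10:86705523-86705561, plus strand): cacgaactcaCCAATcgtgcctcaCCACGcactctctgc
Calr (chr8:84847065-84847103, plus strand): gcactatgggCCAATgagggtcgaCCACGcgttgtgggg
Canx (chr11:50325790-50325828, minus strand): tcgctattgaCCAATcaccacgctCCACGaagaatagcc
Pdia6 (chr12:17266481-17266519, plus strand): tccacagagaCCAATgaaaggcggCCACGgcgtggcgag
Dnajc3 (chr14:118937817-118937855, plus strand): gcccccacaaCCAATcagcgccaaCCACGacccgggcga

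A second ERSE lay further upstream in Hsp90b1, at -212 to -194 bases from the start. Of the 9 genes with an ERSE, 1 rose (Derl3, while 1.79% of all genes rose) and 5 had positive log2 fold changes. The values ran from -0.13 for Dnajc3 to 1.22 for Derl3, with a median of 0.033. Of the 25 measured members with a promoter and no ERSE, 2 rose and the median was -0.043. An exact ERSE was thus present both in genes whose interval lay above 0 (Derl3, Hspa5 and Creld2) and in genes whose interval included 0, such as Calr and Hsp90b1.

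Herpud1 had no exact ERSE but held 2 other elements. ERSE-II, searched as ATTGG, any base, then CCACG, was present in 12 of all promoters (0.0365%) and in 2 members, Herpud1 and Dnajb11. The composite element TGATGCAA, to which ATF4 and C/EBP dimers are known to bind, was present in 0.895% of all promoters and in 1 member, Herpud1. The element TGACGTGG (UPRE), bound by spliced XBP1, was present in 0.676% of all promoters and in 0 of the 35 genes with a window. The matches in Herpud1 did not overlap. Its promoter (chr8:94386179-94386478, plus strand) is shown whole. Among the 35 genes with a window, it alone combined an exact stress element of the ATF6 kind with one of the ATF4 kind. Capitals mark the composite element, read here on its other strand, and then ERSE-II.
Herpud1: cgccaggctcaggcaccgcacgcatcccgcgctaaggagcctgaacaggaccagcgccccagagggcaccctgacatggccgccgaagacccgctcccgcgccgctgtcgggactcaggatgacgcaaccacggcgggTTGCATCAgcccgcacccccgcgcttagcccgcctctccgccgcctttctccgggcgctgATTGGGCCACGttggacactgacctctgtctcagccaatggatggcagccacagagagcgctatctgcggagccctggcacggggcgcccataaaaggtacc

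The composite element lay at -112 to -105 and ERSE-II at -52 to -42 from the Herpud1 start. In Dnajb11 the ERSE-II lay at 8 to 18 after the start, and its log2 fold change was 0.032 (interval -0.19 to 0.25). A match is a description of the letters and not of binding. The Xbp1 window held none of these 4 elements.

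**Figure D4:**
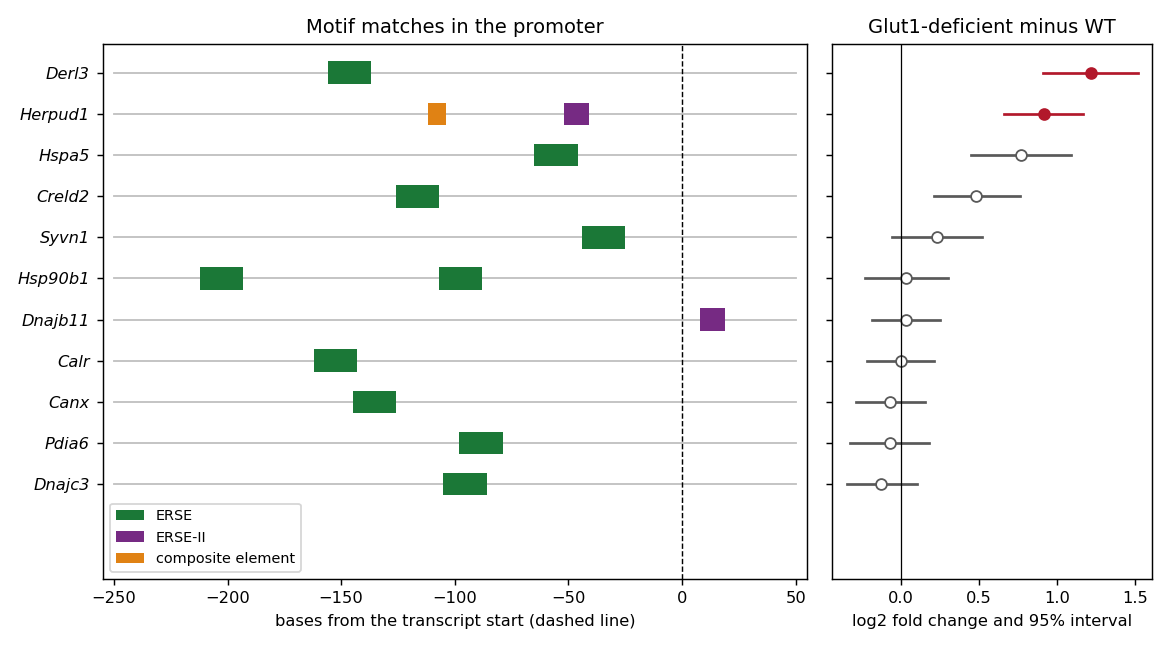
Left, positions of exact ERSE (green), ERSE-II (purple) and composite element (orange) matches in the promoters of the 11 members that hold one, in bases from the annotated start (dashed line); right, their log2 fold change with the 95% interval. Genes run from Derl3 at 1.22 to Dnajc3 at -0.13.

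The Glut1-deficient arrays were not alike in fibroblast markers, which summed to 1221 on array 1 and 686 on array 2. Pdgfra, a fibroblast receptor, read 8.64 and 7.47 on them, against 5.97 and 5.84 in WT. In level, members went both ways between these arrays. Hspa5 was higher on array 1 (9.61) than on array 2 (9.34). So were Sel1l, Creld2, Dnajb9, Hsp90b1, Derl3 (5.76 and 5.65) and Xbp1 (9.29 and 9.17). Eif2ak3 (6.92 and 7.20), Edem2 (7.96 and 8.17), Pdia5, P4hb and Creb3l2 were lower on array 1. All of these lay further from the WT mean on array 1, such as Hspa5 (0.9 and 0.64) and Pdia5 (-0.599 and -0.515). Some other members lay further from it on array 2, such as Pdia3 (-0.116 and -0.216) and Erlec1 (0.057 and 0.189). Over all members the median relative to the WT mean was 0.0051 on array 1 and -0.024 on array 2. Herpud1 was nearly equal on both (9.49 and 9.51). With any 1 array left out, the lowest log2 fold change was 1.10 for Derl3, 0.83 for Herpud1, 0.73 for Xbp1 and 0.64 for Hspa5. Of 5 plasma cell markers, 1 rose (1.79% of all genes did), namely Prdm1 (1.96-fold, limma adjusted p = 0.0223). The median log2 fold change of these 5 markers was 0.014. Their summed intensity was 415 and 382 in Glut1-deficient and 224 and 222 in WT. Most of that sum came from Prdm1, at 8.56 and 8.41 in Glut1-deficient and 7.52 and 7.51 in WT. Mzb1 read 4.10 and 4.25 in Glut1-deficient and 4.21 and 4.25 in WT. The part of fibroblasts, melanocytes or plasma cells in the member values was not tested.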

How the data were processed

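The deposited values are log2 intensities, 1 per transcript cluster. Per the submitters' processing notes, RMA was run in Affymetrix Expression Console. RMA equalizes the arrays' distributions, so differences in total signal are removed. The software version was not given in the sources used here, nor was the build behind the array annotation. The table holds 41345 rows, of which 23521 carry 1 symbol in the platform annotation, 1814 several and 16010 none, and 0 symbols changed through the gene table of GRCm38.p6. Array medians ran from 4.07 to 4.11. The number of arrays limits the precision.

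All 22180 genes entered one linear model each (limma 3.58.1 under R 4.3.3, eBayes moderation, 2 residual and 2.95 prior degrees of freedom), Glut1-deficient minus WT, two-sided, adjusted over all genes. An exact permutation test of 2 against 2 arrays cannot give a two-sided p below 0.333. The labels call the arrays biological replicates. Nothing says whether the pools share mice or culture days. The p-values therefore reflect variation among pools only. Same-numbered arrays did not deviate together (r = -0.025 over genes). The members and all lists were chosen with earlier results of these data known. Values by array are given for members that passed, for those with the smallest p or highest mean of each role, and for those whose rows disagree in sign; of other lists, up to 4 genes with the smallest p, and of markers the brightest. Syvn1, Erlec1, Uggt1, Ern1, Ern2, Eif2ak3, Atf6b, Vcp, Surf4, Hspa1b and Mzb1, where that rule did not take them, were added for their role after their values were seen. The fitting code was run on simulated data with independent normal noise, which checks the code and not the design of these 4 arrays.

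Alternatives were variance trends, other scalings, a filter on dim genes, other row choices, leaving out each array, the replicate block, other thresholds and no moderation. Motifs were searched in RefSeq promoters. Overlapping promoters of opposite strands were reverse complements in 1668 of 1668 cases.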

Additional observations from a re-analysis of the deposited data

How the results depend on the processing

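The member calls depended on how the variance was estimated. The log2 fold changes of the 3 genes that rose kept their direction, which was fixed in advance for most alternatives. Trends, the block, thresholds and no moderation leave a fold change as it is. Groups that do not overlap keep their sign with an array left out. The members that rose numbered 7 with an intensity trend (also with robust estimation), among genes above the median level and at an adjusted p under 0.1, the added genes in each case being Creld2, Dnajb9, Hspa5 and Sel1l (Derl3 passed the filter on level only through its Glut1-deficient values). They numbered 5 after median centring (with Hspa5 and Sel1l), and 0 with all rows as separate tests, with the replicate block, without moderation and with any 1 array left out (limma, 9 to 12 members at an unadjusted p under 0.05 with an array left out). The members that fell numbered 3 with either trend (Creb3l2, P4hb and Pdia5), 2 among brighter genes and at 0.1, and 1 (Pdia5) after median centring, percentile scaling, quantile normalization again and with the mean of rows. The count over all genes was 630, against 2671 and 2729 with the trends, 2327 among brighter genes, 1855 at 0.1, 37 with the replicate block, 0 without moderation (3646 at an unadjusted p under 0.05), and 0 with all rows (limma, 6694 at an unadjusted p under 0.05) or with an array left out (2948 to 4627 at an unadjusted p under 0.05). The 15 calls in the other lists became 51 with either trend, 39, 32, 3 with the block, 0 without moderation, 0 with all rows and 0 with an array left out. Leaving out arrays reduces the residual degrees of freedom to 1. The remaining arm of 1 array is then assumed to vary like the other.

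With arrays left out, class medians ranged from -0.024 to 0.0074 for all members, -0.03 to 0.027 for folding, 0.064 to 0.073 for ERAD, -0.13 to 0.071 for the sensor branch and -0.10 to -0.03 for the translocon, and folding minus ERAD from -0.10 to -0.044. With the mean of rows the ERAD median was 0.11 and folding minus ERAD -0.095. Of the 22 members whose values were recomputed under the alternatives, signs turned for 5, for Calr to 0.009 after quantile normalization again, for Derl2 to 0.10 with the mean of rows, and with arrays left out, where values ran from -0.093 to 0.071 for Derl2, -0.058 to 0.12 for Hsp90b1, -0.36 to 0.16 for Sec61b, -0.16 to 0.078 for Sec63 and up to 0.019 for Calr. Causes were not tested.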

Other observations

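Chaperones outside the ER were read on the same arrays. Of 12 mitochondrial chaperone and protease genes, 2 rose (1.79% of all genes did), 0 fell and 10 did not pass. Their median log2 fold change was 0.22. Lonp1, the mitochondrial matrix protease, read 9.31 and 9.05 in Glut1-deficient cells and 8.17 and 8.14 in WT cells, a 2.03-fold rise (limma adjusted p = 0.0286). Grpel2, a nucleotide exchange factor of the mitochondrial Hsp70, read 9.30 and 9.21 in Glut1-deficient and 8.67 and 8.65 in WT, a 1.52-fold rise (limma adjusted p = 0.0446). That Hsp70, Hspa9, read 12.04 and 11.99 in Glut1-deficient and 11.55 and 11.57 in WT (0.46; limma adjusted p = 0.0663).

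Of 14 cytosolic heat shock genes, 1 rose (1.79% of all genes did), 0 fell and 13 did not pass, with a median of -0.054. Cryab, a small heat shock protein, read 10.32 and 10.24 in Glut1-deficient and 9.56 and 9.54 in WT (1.66-fold; limma adjusted p = 0.0318). Hspa1a and Hspa1b, near-identical copies of the inducible Hsp70 whose probes may cross-hybridize, pointed opposite ways, with Hspa1a at 0.53 and Hspa1b at -0.54, so their values are uncertain.

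Members with a second, dimmer row gave mixed readings there. Derl2 read 4.96 and 5.24 in Glut1-deficient and 5.11 and 4.68 in WT on the dimmer row, and Sec61b 3.53 and 4.02 in Glut1-deficient and 3.76 and 3.66 in WT, each opposite in sign to the brighter row. For Edem1 the dimmer row read 4.03 and 4.00 in Glut1-deficient and 4.19 and 4.23 in WT, on the same side as the brighter row.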
